A study of Drosophila melanogaster with 24 samples.

Results

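Light detection in the compound eye of *Drosophila melanogaster* rests on a small set of photoreceptor genes, and 10 of them were followed here through a cold treatment and its transmission to the offspring. The 10 genes are ninaE, ninaA, norpA, trp, trpl, ninaC, inaD, inaC, Arr1 and Arr2. They were taken by their FlyBase symbols, and all 10 had a row among the 12024 genes of the expression table. All 10 passed the filter on low values that left 11314 genes for testing.

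RNA-seq was made from whole males of the isogenic strain w1118_iso/Dp(1;Y)y+_iso;2_iso;3_iso. It lacks a working white gene and the dark screening pigment of the eye, and its males carry a Y chromosome with a duplicated piece of the X that holds yellow+. Each library held RNA of 20 pooled males that were 0–16 h old, kept on a 12/12 light cycle. F1-18 males were cold-treated, that is, reared at 18 °C for their whole life (n = 4 libraries), and F1-25 control males were reared at 25 °C (n = 3). All F2 males were reared at 25 °C from washed eggs put on food in which F1 males had defecated. The group names give the microbiome source (M) and the germline source (G) of the F2 flies, 18 for cold-treated and 25 for control parents: F2-M18-G18 (n = 4), F2-M25-G18 (n = 4), F2-M18-G25 (n = 3) and F2-M25-G25 (4 libraries).

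The deposited table and its labels have a pair of faults that bear on the eye genes. In F2-M25-G25, replicates 3 and 4 hold, for 9 of the 10 genes, the mean of replicates 1 and 2 plus a whole number. Such calculated values were left out, so that F2-M25-G25 has n = 2 for all members except ninaA. The crossed F2 groups are also named in opposite order by different sources. The sample characteristics are followed here, and "as labelled" means by them. The column names of the deposited table and the library names in the supplement of the study give F2-M18-G25 and F2-M25-G18 the other way round. In the text and supplement of the study F2-M18-G25 has its full 4 replicates, whereas here the crossed group with 4 libraries is F2-M25-G18. The naming of the study and the column names therefore both go with the exchanged reading, and the sample titles and characteristics go against it. Which one is right was not settled here. Under the exchanged reading the microbiome and germline effects reported below change places, and every comparison that uses neither crossed group stays as it is.

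In fly photoreceptors, light converts rhodopsin to metarhodopsin, which activates a Gq protein and then phospholipase C, and the cleavage of PIP2 in the membrane leads to opening of the TRP and TRPL cation channels. Arrestins bind metarhodopsin and end its activity, and a scaffold protein, INAD, holds phospholipase C, protein kinase C and the TRP channel together in the rhabdomere, the stack of microvilli that holds the pigment. The pathway runs at high protein levels, and its genes are among the most strongly expressed genes of the photoreceptor.

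Per kilobase of exon, ninaE was the most abundant of the 10 transcripts. This gene encodes Rh1, the rhodopsin of the outer photoreceptors (3R:19886255-19888206, minus strand, BDGP6), and its mean TMM-normalized value over 20 libraries was 2799.8 per kb. Arr2, the major arrestin (3L:8647261-8648936, minus strand), followed with 1475 per kb, and Arr1, the other visual arrestin (2L:18078269-18081307, plus strand), reached 568 per kb. ninaC, a myosin with a kinase domain (2L:7377702-7384344, plus strand), stood at 467 per kb and trp (3R:29914521-29920289, minus strand) at 362 per kb. The phospholipase C gene norpA, on the X chromosome, had 248 per kb. The 3 members on chromosome arm 2R were lower, with 191 per kb for trpl, 147 per kb for inaC, the eye-specific protein kinase C, and 144 per kb for the scaffold gene inaD. ninaA, a cyclophilin that helps Rh1 leave the endoplasmic reticulum, was far below the others at 34.6 per kb. None of the 10 genes overlaps an annotated gene on its own strand.

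Eye tissue was present in every group by its structural genes. The summed value of 8 genes of eye structure and lens, among them chp (chaoptin, an adhesion protein of rhabdomeres) and Crys (a corneal lens protein), ranged from 2517 to 5024 over 20 libraries. The white gene w was near the floor, with group means from 2.68 to 11.9. In whole-fly RNA, fewer photoreceptor cells and less RNA per photoreceptor cannot be told apart.

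**Figure D1:**
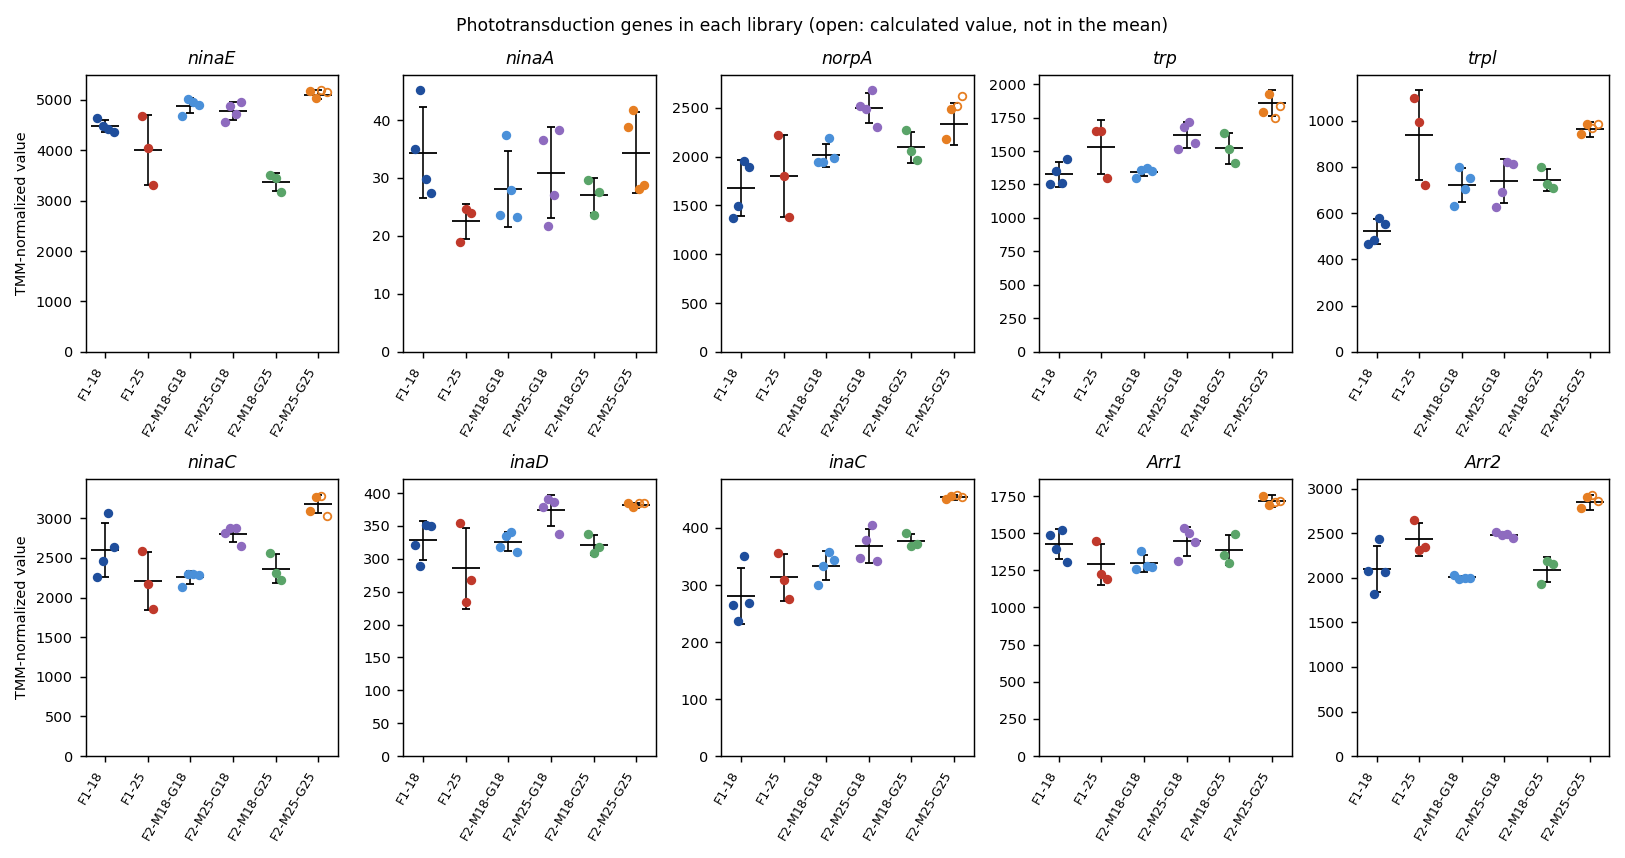
TMM-normalized value (y axis, from 0) of each of the 10 phototransduction genes in every library, by group; the bar and whiskers give the group mean and SD, and open circles are calculated values left out of both. F1-18 is lowest for trpl (466 to 579.5), F2-M18-G25 is lowest for ninaE (3165 to 3513), and F2-M25-G25 has the highest group mean for 8 of the 10 genes.

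The first comparison asked what rearing at 18 °C did to the F1 flies themselves. One member changed: trpl, the gene of the second light-activated channel, was lower in cold-treated males. Its values were 466, 484, 579.5 and 554 in the 4 F1-18 libraries and 1097, 993 and 721 in the 3 F1-25 libraries. All F1-18 libraries lay below all F1-25 libraries, and also below all F2 libraries, in which trpl ran from 628 to 986. The log2 fold change was −0.83 (SE 0.13), a fall of 43.7%, with an adjusted p of 0.000154 (limma). It held in all 14 alternative settings, between −1.01 and −0.70.

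The partner channel gene trp did not pass. It had values of 1251, 1349, 1258 and 1444 in F1-18 and 1646, 1646 and 1299.5 in F1-25, so that the groups overlapped, and its log2 fold change was −0.20 (SE 0.09, limma adjusted p = 0.116). The ratio of trp to trpl was therefore higher in F1-18, at 2.56 ± 0.27 (SD, n = 4), than in F1-25, where it was 1.65 ± 0.15 (SD, n = 3). The lowest F1-18 ratio was 2.17 and the highest F1-25 ratio 1.80. In the F2 groups the mean ratio ran from 1.87 in F2-M18-G18 to 2.21 in F2-M25-G18.

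None of the other 9 members passed the test in F1. For the photopigment gene ninaE the values were 4636, 4487, 4423 and 4371 in F1-18 and 4674, 4036 and 3303 in F1-25. Its log2 fold change was 0.18 (SE 0.10, limma adjusted p = 0.206). The range in F1-25 was wide, with the highest F1 value of ninaE in its replicate 1 and the lowest in its replicate 4. ninaA had 34.9, 45.1, 29.8 and 27.4 in F1-18 against 19.0, 24.6 and 24.0 in F1-25, which did not overlap, yet its log2 fold change of 0.55 (SE 0.22) missed the threshold (limma adjusted p = 0.0669). Of the 10 members, 5 had a fold change above 0 and 5 below, and Arr1 moved from 0.15 to −0.0085 when libraries were scaled to equal totals.

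The members' count in F1 was near the background. The one member called lower stands beside 12.6% of all tested genes called lower and 23.5% called in either direction. The 2 members whose groups did not overlap stand beside 26.3% of all tested genes. The median log2 fold change was 0.03 for the members and 0.013 for all genes. Leaving out 1 library at a time gave 1 to 4 members called, trpl always among them. Without F1-25 replicate 1, inaD, ninaC and ninaE were called higher, without F1-18 replicate 1 ninaC was, without F1-18 replicate 4 ninaA was, without F1-18 replicate 3 Arr2 was called lower, and without F1-25 replicate 4 trp was.

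Neither arrestin gene passed the test in F1. Arr2 was 2078, 1815, 2439.8 and 2070.2 in F1-18 against 2645, 2309.7 and 2341 in F1-25. Its log2 fold change was −0.22 (SE 0.09, limma adjusted p = 0.083). Arr1 had 1491, 1396, 1524 and 1304 in F1-18 against 1450.5, 1228 and 1191 in F1-25. Both genes overlapped between the groups, but their ratio did not: Arr2 over Arr1 was 1.30 to 1.60 in F1-18 and 1.82 to 1.97 in F1-25. These ratios are a description, chosen after the values were seen, and were not tested.

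**Figure D2:**
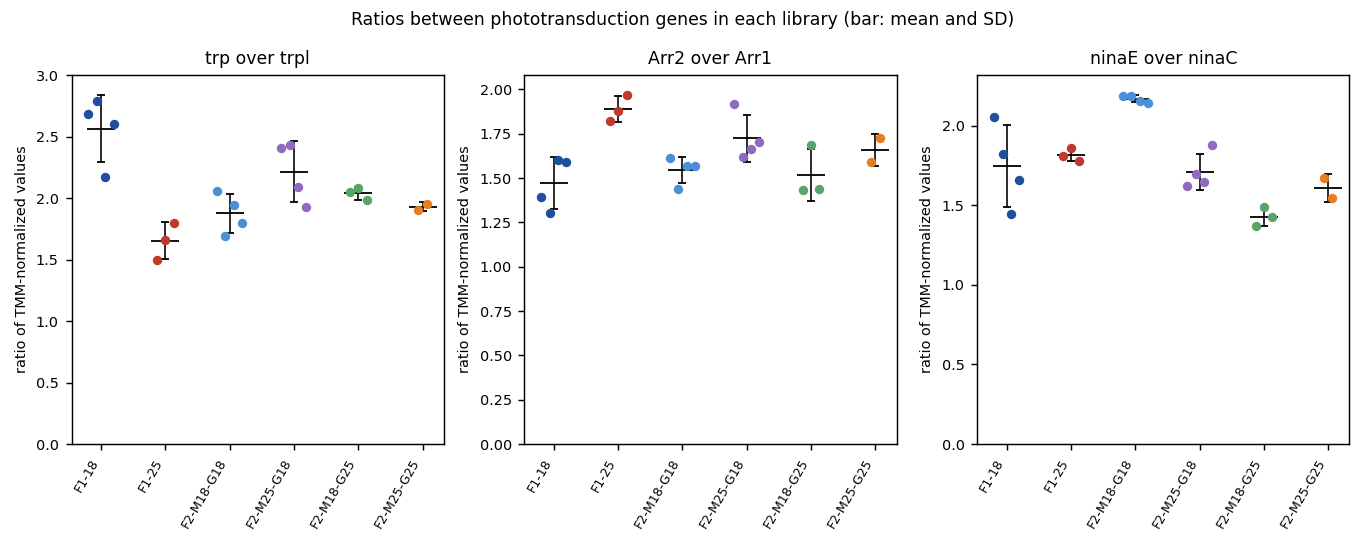
Ratio of TMM-normalized values (y axis, from 0) of trp to trpl, of Arr2 to Arr1 and of ninaE to ninaC in each library, by group, with the group mean and SD. The F1 groups are apart for trp over trpl (2.17 to 2.79 against 1.50 to 1.80) and for Arr2 over Arr1 (1.30 to 1.60 against 1.82 to 1.97), and for ninaE over ninaC F2-M18-G18 is highest (2.14 to 2.19).

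In the offspring, the second comparison set F2 flies with both germline and microbiome of cold-treated parents against those with both from control parents, all reared at 25 °C. Here 4 members were lower in F2-M18-G18 and none was higher. They were both arrestin genes, the channel gene trp and the myosin gene ninaC, each lower by 24.4% to 29.6%. This comparison rests on 2 measured libraries of F2-M25-G25 for these genes. For ninaC and Arr1 the F2-M18-G18 means (2255 and 1298) were near those of F1-25 (2204 and 1290.0). Their F2-M25-G25 means were higher (3181 and 1717). For Arr2 and trp the F2-M18-G18 means (2004 and 1344) lay below those of F1-25 (2432 and 1530). F2-M18-G18 was not tested against F1-25.

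Arr2 stood at 2027, 1989.9, 2003 and 1995 in F2-M18-G18 and at 2784 and 2909 in F2-M25-G25, which gave a log2 fold change of −0.51 (SE 0.10, limma adjusted p = 0.00789). For trp the values were 1296, 1357, 1372 and 1350.4 against 1790.2 and 1926, and the log2 fold change was −0.47 (SE 0.10, limma adjusted p = 0.0159). ninaC had 2135, 2296, 2299 and 2287 against 3097 and 3265, with a log2 fold change of −0.50 (SE 0.12, limma adjusted p = 0.0291). All F2-M18-G18 libraries lay below both F2-M25-G25 libraries in these 3 genes. The same was true of Arr1, with 1258, 1383, 1279.8 and 1273 against 1747 and 1687 and a log2 fold change of −0.40 (SE 0.10, limma adjusted p = 0.0291).

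The other 6 members also had fold changes below 0, but none passed the test. The protein kinase C gene inaC came nearest, at −0.44 (SE 0.13, limma adjusted p = 0.0661), followed by trpl at −0.42 (SE 0.15, limma adjusted p = 0.125). The photopigment gene ninaE stood at −0.06 (SE 0.11, limma adjusted p = 0.822), although its 4 F2-M18-G18 libraries (4669.9 to 5014) just missed the 2 F2-M25-G25 libraries (5046 and 5166). In all, the groups did not overlap for 8 of the 10 members, beside 26.3% of all tested genes.

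The 4 members called lower stand beside 0.681% of all tested genes called lower in this comparison, with 2.23% called higher and 2.91% called in either direction. The median log2 fold change was −0.41 for the members and −0.0059 for all genes. Without either measured F2-M25-G25 library, replicate 1 or replicate 2, no member passed, although the fold changes of these 4 genes stayed between −0.54 and −0.38 when 1 library was left out. Fewer passed too without F2-M18-G18 replicate 1 or replicate 3, with 2 called each (Arr2 and trp), and without replicate 2 or replicate 4, which lost ninaC and Arr1 respectively. Without F1-18 replicate 3, inaC was called as well.

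**Figure D3:**
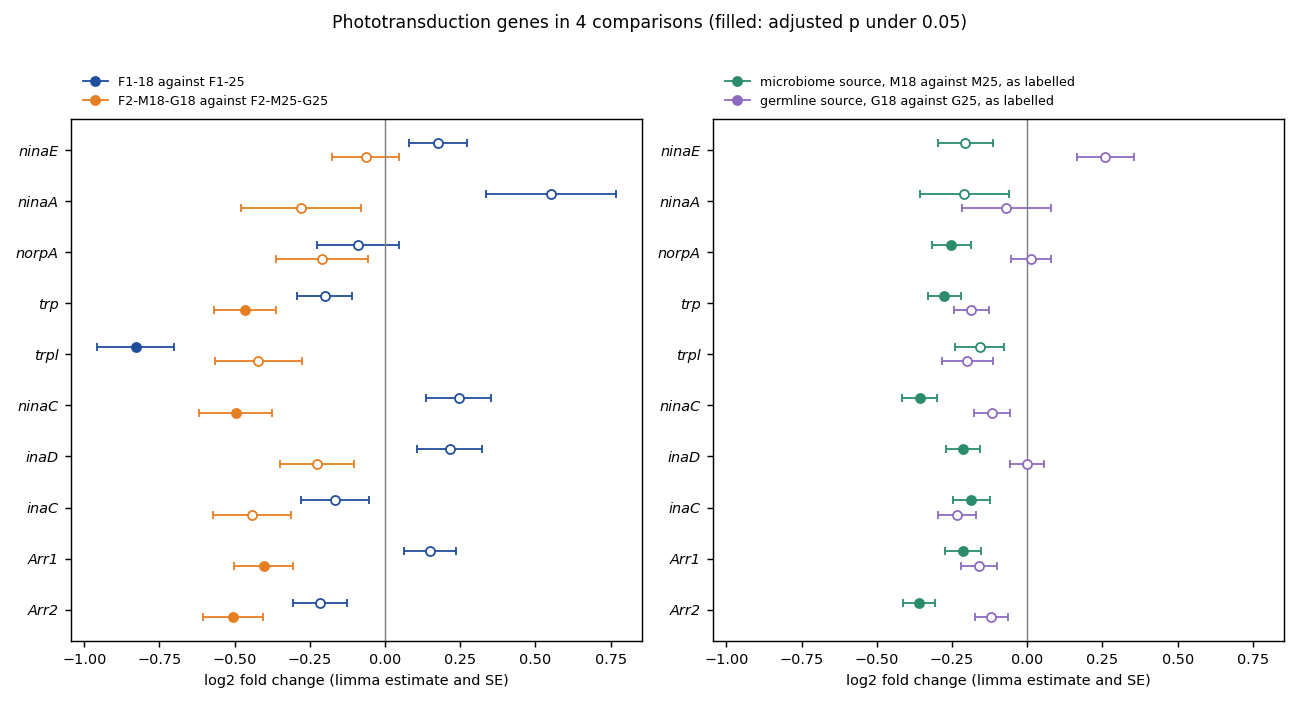
Log2 fold change (x axis, limma estimate with its SE) of the 10 phototransduction genes, for F1-18 against F1-25 and F2-M18-G18 against F2-M25-G25 (left) and for microbiome and germline source in F2 as labelled (right); filled points passed at an adjusted p under 0.05. In F1 only trpl is filled (−0.83), in the F2 history comparison all 10 genes lie below 0 with 4 filled, and on the right 7 microbiome points and no germline point are filled.

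The 2 x 2 of the F2 groups asked which source the difference goes with. For 1 source, 7 of the 10 members were lower in F2 flies that had it from cold-treated flies, over both levels of the other source, and none was higher. That source is the microbiome by the sample characteristics. It is the germline by the naming of the study and the column names, so these calls are not assigned to either here. The 7 genes were Arr2, ninaC, trp, norpA, inaD, Arr1 and inaC, with falls of 12.1% to 22.1%. The count stands beside 6.78% of all tested genes called lower and 9.47% called higher, and the median was −0.21 for the members against 0.0035 for all genes.

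Arr2 and ninaC separated the F2 libraries fully. For Arr2 the F2-M18-G18 libraries ran from 1989.9 to 2027 and those of F2-M18-G25 were 1936, 2191 and 2152, while F2-M25-G18 ran from 2451 to 2512 and F2-M25-G25 was 2784 and 2909. The log2 fold change was −0.36 (SE 0.05, limma adjusted p = 0.000299). ninaC was 2135 to 2299 in F2-M18-G18 and 2568, 2307 and 2219.5 in F2-M18-G25, against 2649 to 2877 in F2-M25-G18 and 3097 and 3265 in F2-M25-G25, with a log2 fold change of −0.36 (SE 0.06, limma adjusted p = 0.00047). All 7 libraries labelled M18 lay below all 6 measured libraries labelled M25 in both genes. How many of all tested genes separate these libraries was not counted, and 16.3% of them were called for this source in either direction.

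The channel gene trp and the phospholipase C gene norpA moved the same way with some overlap. trp had a group mean of 1344 ± 32.9 (SD, 4 libraries) in F2-M18-G18, of 1519 ± 115 (SD, 3 libraries) in F2-M18-G25, of 1618 ± 96.5 (SD, 4 libraries) in F2-M25-G18, and of 1858 ± 96.0 (SD, 2 libraries) in F2-M25-G25. Its log2 fold change was −0.28 (SE 0.06, limma adjusted p = 0.00254). For norpA the means were 2015 ± 117, 2096 ± 159, 2499.9 ± 154 and 2332 ± 214 in the same order, and the log2 fold change was −0.25 (SE 0.06, limma adjusted p = 0.0121). In F1 norpA ran from 1376 to 1955 in cold-treated and from 1381 to 2226 in control males.

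Among the INAD partners and the second arrestin the fold changes lay nearer to 0. inaD had a log2 fold change of −0.21 (SE 0.06, limma adjusted p = 0.0145) with group means between 321 and 381, and Arr1 one of −0.21 (SE 0.06, limma adjusted p = 0.0199) with group means between 1298 and 1717. inaC was just past the threshold at −0.19 (SE 0.06, limma adjusted p = 0.0463). Its call was lost on leaving out any 1 of 9 F2 libraries (F2-M18-G18 replicates 1 and 2, F2-M25-G18 replicates 2 and 3, all 3 of F2-M18-G25 and both of F2-M25-G25), with adjusted p of up to 0.118. Arr1 was lost too without F2-M25-G25 replicate 1 or replicate 2, which left 5 members called. The members not called were ninaE at −0.21 (SE 0.09), trpl at −0.16 (SE 0.08) and ninaA at −0.21 (SE 0.15), with limma adjusted p of 0.141, 0.207 and 0.365.

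For the other source, the germline as labelled and the microbiome by the naming of the study, no member passed in limma, where 1.62% of all tested genes did (1.03% higher). At an unadjusted p under 0.05 there were 6 members, beside 1956 of all 11314 tested genes. The median was −0.12 for the members, 8 of 10 below 0, against −0.0036 for all genes, so a smaller fall with this source was not excluded. Of the members, inaC and trpl alone fell further here (−0.23 and −0.20) than for the source above (−0.19 and −0.16). The nearest were inaC at −0.23 (SE 0.06, adjusted p = 0.0705) and trp at −0.19 (SE 0.06, adjusted p = 0.099). Both passed when the calculated values were kept.

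The photopigment gene ninaE was lowest in 1 crossed group of F2. Its values were 3513, 3440.3 and 3165 in F2-M18-G25, the lowest of all F2 libraries. They compare with 4669.9, 5014, 4951 and 4902 in F2-M18-G18, with 4554, 4877, 4728 and 4967 in F2-M25-G18, and with 5166 and 5046 in F2-M25-G25. Thus 1 crossed group stood apart and the other 3 F2 groups lay between 4554 and 5166. By group mean the order was F2-M25-G25, F2-M18-G18, F2-M25-G18, F1-18, F1-25 and F2-M18-G25, and neighbours overlapped in each step except the first.

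As an interaction of microbiome and germline source, this pattern of ninaE had a size of 0.63 on the log2 scale (SE 0.15), which does not depend on the naming of the crossed groups. It did not pass over all genes in limma (unadjusted p = 0.000342, adjusted p = 0.226), nor did any other member, and 0.00884% of all tested genes passed. With the calculated values kept, ninaE passed at an adjusted p of 0.0291, and with only the F2 groups in the fit at 0.0288. It also passed without F1-25 replicate 4. Its size ran from 0.59 to 0.75 over the 23 alternatives.

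With ninaE low in F2-M18-G25 and ninaC low in both groups labelled M18, their ratio split the F2 groups. F2-M18-G18 had the highest ratio, 2.17 ± 0.022 (SD, 4 libraries), before F2-M25-G18 with 1.71 ± 0.115 (SD, 4 libraries), F2-M25-G25 with 1.61 ± 0.087 (SD, 2 libraries) and F2-M18-G25 with 1.43 ± 0.062 (SD, 3 libraries). The F2-M18-G18 libraries did not overlap those of any other F2 group. This ratio too was chosen after the values were seen, so its split follows from the levels described above, and it was not tested.

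The control flies of the 2 generations were compared next, both reared at 25 °C, the F2 from washed eggs. In F2-M25-G25, 4 members were higher than in F1-25 and none was lower, beside 2.78% of all tested genes called higher, 3.82% called lower and 6.59% in either direction. ninaC rose by 0.54 (SE 0.13, limma adjusted p = 0.0136) from 2587, 2169.8 and 1856 to 3097 and 3265. inaC rose by 0.54 (SE 0.14, limma adjusted p = 0.0193), Arr1 by 0.42 (SE 0.10, limma adjusted p = 0.0191) and inaD by 0.44 (SE 0.13, limma adjusted p = 0.0481) on the log2 scale.

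These 4 calls rest on few libraries. None was left when only these 2 groups were fitted, without F1-25 replicate 4 or without either measured F2-M25-G25 library, and only ninaC was left without F1-25 replicate 2. The call of inaD alone was lost without any 1 of the libraries of F2-M18-G18 or F2-M18-G25, of F2-M25-G18 replicates 1, 2 and 3 and of F2-M25-G25 replicate 4. Without F1-25 replicate 1, ninaE and norpA were called too. All 10 members had fold changes above 0, with a median of 0.41 against −0.018 over all genes, and for 8 of 10 the groups did not overlap, beside 29.0% of all tested genes. The exceptions were norpA and trpl, and trpl had almost the same level in both control groups (937 ± 194, SD, n = 3, and 963 ± 32.5, SD, n = 2).

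Whether the cold history effect differed between generations was tested directly. It did for ninaC, by 0.74 (SE 0.16, limma adjusted p = 0.0133), and for Arr1, by 0.55 (SE 0.13, limma adjusted p = 0.0208), beside 4.78% of all tested genes in either direction, 1.62% with a difference above 0 like these and 3.16% with one below 0. In F1 their fold changes were 0.24 and 0.15, above 0 but not past the threshold, while in F2 they were −0.50 and −0.40. Without F2-M25-G25 replicate 2 neither passed, and without F1-25 replicate 2, F1-25 replicate 4 or F2-M25-G25 replicate 1 only ninaC did. Without F1-25 replicate 1, inaD passed as well. For trpl, the one member called in F1, the difference of −0.41 (SE 0.19) did not pass (limma adjusted p = 0.222), so a loss of its F1 response in F2 was not shown.

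Other genes of vision were taken from fixed lists, 76 of 81 with a row in the table. For the microbiome source as labelled, the germline by the naming of the study, 6.78% of all tested genes were called lower and 9.47% higher. These shares stand beside each list count for this source below. With it, 6 of 10 genes of the G protein and PIP2 cycle were lower and none higher, with a list median of −0.24. Among them were PIP5K59B, a phosphoinositide kinase, at −0.32 (SE 0.08), Gbeta76C and Ggamma30A, the eye-specific G protein subunits, at −0.29 (SE 0.07) and −0.27 (SE 0.07), and rdgA, the diacylglycerol kinase, at −0.24 (SE 0.06), with limma adjusted p from 0.00684 to 0.0101. Of 6 other rhodopsins, Rh3 and Rh4, the ultraviolet opsins of the inner photoreceptors, were lower, at −0.31 (SE 0.06) and −0.34 (SE 0.06) with limma adjusted p of 0.00226 and 0.00178. The list median was −0.27.

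Of 8 regulators of the channels and of signalling, 2 were lower: inaF-B, a small membrane protein needed for TRP function, at −0.40 (SE 0.09, limma adjusted p = 0.00595), and rdgC, the rhodopsin phosphatase, at −0.25 (SE 0.08, limma adjusted p = 0.0498). For eye structure and lens 3 of 8 were lower, namely Crys at −0.38 (SE 0.09), chp at −0.32 (SE 0.06) and eys, which keeps the rhabdomeres apart, at −0.26 (SE 0.06), with limma adjusted p from 0.00121 to 0.00884. These 4 lists held no higher call. Others did, with ninaD at 1.07 and santa-maria at 0.66 among the genes for rhodopsin maturation and chromophore supply, and bw at 0.67 among those for screening pigment.

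Neuron markers moved with them. Of 7 pan-neuronal genes, 5 were lower with the microbiome source as labelled and none higher: brp at −0.35, Appl at −0.34, nSyb at −0.33, cac at −0.31 and Syt1 at −0.27, with limma adjusted p from 0.000799 to 0.0111. elav, which marks all neurons, stood at −0.16 (SE 0.06, limma adjusted p = 0.071). The list median was −0.31, beside −0.21 for the members.

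The summed neuron value was 4838 ± 191 (SD, 4 libraries) for F2-M18-G18, then 4660.3 ± 381 (SD, 3 libraries) for F2-M18-G25, 5849 ± 347 (SD, 4 libraries) for F2-M25-G18, and 5784 ± 471 (SD, 2 libraries) for F2-M25-G25. The 9 members without ninaE summed to 10325 ± 282, 10926 ± 349, 12362 ± 447 and 13773 ± 509.6 in the same order of groups. Libraries labelled M18 ran from 4222 to 5115 in the neuron sum and those labelled M25 from 5407 to 6254, with no overlap. The part of the neuron levels in the eye result was not tested. Antenna and glia lists had no gene called, with medians of −0.083 and −0.069.

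**Figure D4:**
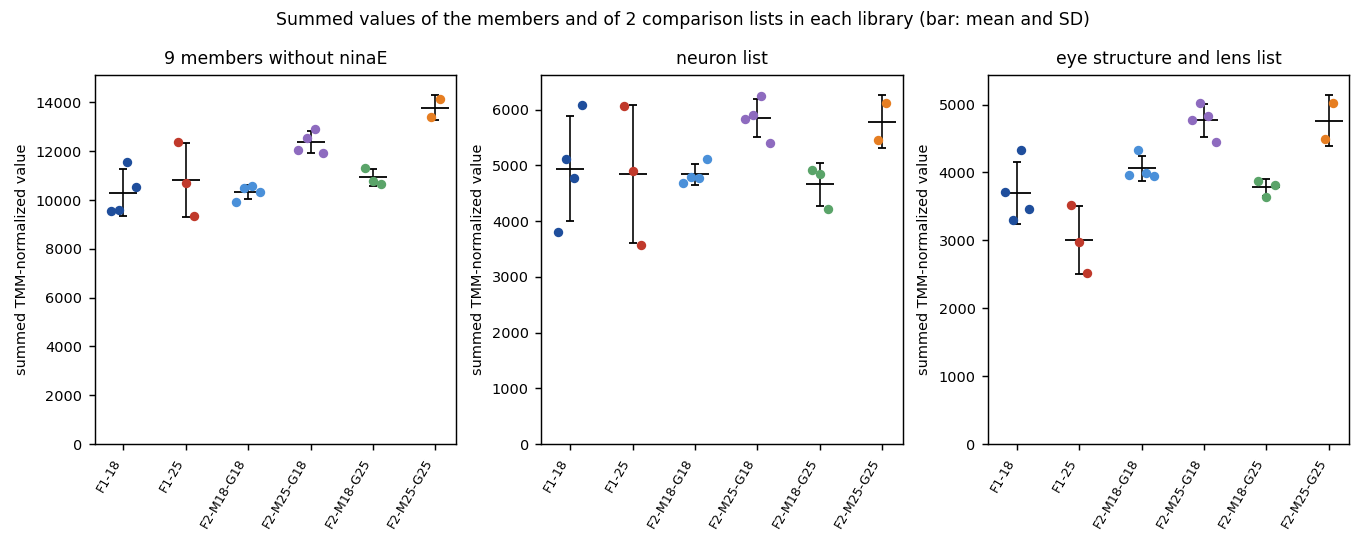
Summed TMM-normalized value (y axis, from 0) of the 9 members without ninaE, of the neuron list and of the eye structure and lens list in each library, by group, with the group mean and SD. In F2 the neuron sums of libraries labelled M18 (4222 to 5115) lie below those labelled M25 (5407 to 6254), as do the sums of the members. The eye structure and lens sums do so too (3646 to 4329 against 4442 to 5024), while the F1 groups overlap in all 3 sums.

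The same lists were counted in F1. None of the 10 genes of the G protein and PIP2 cycle and none of the 7 neuron markers passed, at limma adjusted p under 0.05. At an unadjusted p under 0.05 in limma there were 2 and 0, beside 4006 of all 11314 tested genes. The rhodopsins Rh5, of the blue-sensitive inner photoreceptors, and Rh2, of the ocelli, were higher in cold-treated males by 0.94 (SE 0.31) and 0.60 (SE 0.20), with limma adjusted p of 0.0319 and 0.0314. inaF-B was lower, at −0.65 (SE 0.18, limma adjusted p = 0.0108) and Cam, calmodulin, was higher by 0.48 (SE 0.13, limma adjusted p = 0.0112). In the antenna and glia lists, Orco, the odorant co-receptor, and moody, a receptor of the blood-brain barrier glia, were higher by 0.90 (SE 0.31) and 0.36 (SE 0.11), with limma adjusted p of 0.0407 and 0.0201.

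Lens and structure genes held 6 of 8 calls in F1, 5 higher and 1 lower, beside 11.0% and 12.6% of all tested genes. Crys and retinin, both of the corneal lens, were higher by 0.86 (SE 0.15) and 0.84 (SE 0.18), prom, a membrane protein of the rhabdomere, by 0.61 (SE 0.14), and Cpr72Ec, a lens cuticle protein, was lower, at −1.95 (SE 0.23). Their limma adjusted p lay between 1.05e-05 and 0.00306. The list median was 0.43, against 0.03 for the 10 members.

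**Figure D5:**
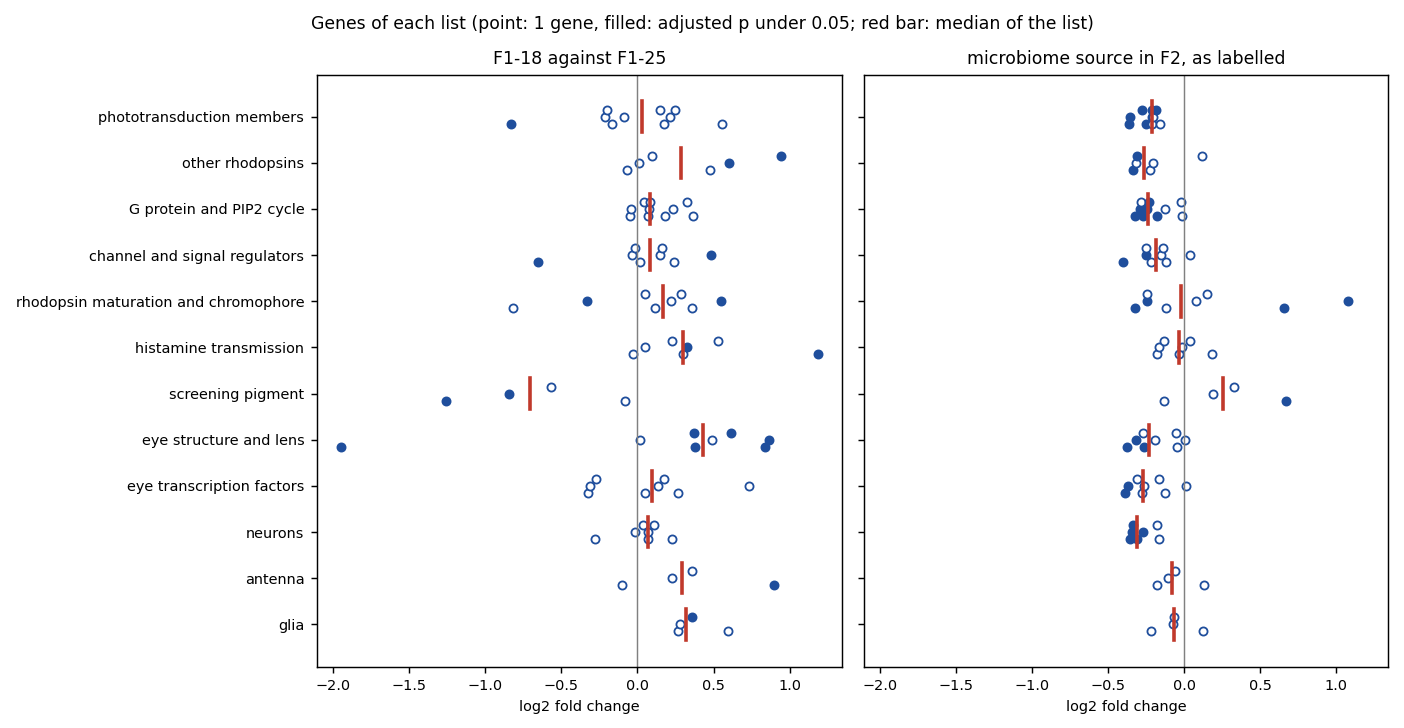
Log2 fold change (x axis) of single genes in the members and the 11 other lists, for F1-18 against F1-25 (left) and microbiome source in F2 as labelled (right); filled points passed at a limma adjusted p under 0.05, and red bars are list medians. On the right the members (median −0.21), the G protein and PIP2 cycle (−0.24) and the neurons (−0.31) lie below 0, while on the left the lens list (0.43) lies above 0 and trpl is the one filled member.

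Across 20 libraries, leaving out F2-M25-G25 replicates 3 and 4, the members followed each other to different degrees. The highest correlation was that of norpA and inaC (Pearson r = 0.81 across libraries, on log2 values), then ninaC and inaD (0.79). ninaC and trp had the highest median correlation with the other members (0.62 each), and ninaE (0.32), trpl (0.20) and ninaA (0.069) the lowest. The libraries share groups, so these values describe the set and carry no test.

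Genes most like ninaE in this measure were not among the eye lists. The 5 nearest of the tested genes outside the 10 were Smr, a nuclear corepressor (r = 0.83), Alh, a chromatin protein (0.82), Dora (0.82), CG9016 (0.82) and Cdlc2, a dynein light chain (0.82), over the same 20 libraries. Smr was lowest in F2-M18-G25 as well (883 ± 102, SD, n = 3) and highest in F2-M25-G25 (1298 ± 53.5, SD, n = 2).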

How the data were processed

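Whole-male RNA-seq of the 6 groups was taken from the deposited table of 12024 genes and 22 libraries, and 2 of the 24 samples had no column. The authors depleted rRNA, made stranded libraries and, per the labels, used Trimmomatic 0.32, STAR 2.4.0f1, HTSeq 0.6.1 and edgeR. The authors deposited TMM-normalized values, which are treated as a signal and not as read counts. Library sums ran from 3702933 to 4398050, but since the values had been moved to a common library size these are not read depths. In most libraries low values did not lie on multiples of one step, so the reads behind each value could not be recovered and no counting interval is given. The supplement of the study lists aligned reads per library, which were not used here. By that list F2-M25-G18 replicate 3, as labelled, is the shallowest library.

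Values that equalled the mean of F2-M25-G25 replicates 1 and 2 plus a whole number (within 0.0002) in both replicates 3 and 4 were set missing, for 7150 genes. Testing covered genes that reached 10 in 3 or more libraries. It was done with limma 3.58.1 (R 4.3.3) on log2(value + 2), with a mean-variance trend, two-sided, and Benjamini-Hochberg adjustment over 11314 genes. A gene was called at an adjusted p under 0.05. Fold changes are on the log2(value + 2) scale, which understates the change of low genes. F1 and whole-history comparisons and the interaction used all 6 groups in one fit, and microbiome and germline source were additive terms in the F2 libraries. The script was tested on simulated data.

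Groups came from the sample characteristics. The methods of the study describe the replicates as biological, with males collected from each. Named were all 10 members and, per list, up to 4 called genes with the largest change, or more where a list had 8 or fewer measured genes. For likeness, the 5 genes outside the members with the highest Pearson r to ninaE were named. Members and lists were chosen with earlier results of these data known. Alternatives were 2 other scalings, no filter, a pseudocount of 10, calculated values kept, only the compared groups, a replicate block, exchanged crossed groups and leaving out each library. Symbols came from an identifier table that named 11888 of the genes, and coordinates from the BDGP6 annotation. Figures were drawn with matplotlib 3.10.9.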

Additional observations from a re-analysis of the deposited data

Results flagged for a closer look

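ninaC in F2-M18-G18 replicate 1, at 2135, lay apart from the other 3 libraries of its group (2287 to 2299), and norpA in F2-M18-G18 replicate 3, at 2188, lay above the other 3 (1943 to 1984). Of 31 groups of 4 values looked at, about 1 in 20 is expected to stand out in this way by chance.

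The cold history effect differed between generations for ninaC, by 0.74 on the log2 scale, and for Arr1, by 0.55, in the limma test of the difference itself (adjusted p = 0.0133 and 0.0208). This rests on 2 measured libraries of F2-M25-G25, and Arr1 did not pass without F1-25 replicate 2 or replicate 4. In F1 the flies themselves were reared in the cold, and neither gene was called there. F1-18 libraries had group means of 2604 for ninaC and 1429 for Arr1 against 2204 and 1290.0 in F1-25, and F2-M18-G18 had 2255 and 1298 against 3181 and 1717 in F2-M25-G25.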

How the results depend on the processing

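Over the settings other than leaving out a library, 472 of the members' single values kept direction and side of the threshold, 26 gained a call, 13 lost one and 9 turned. Exchanging the crossed groups moved the members called from 7 to 0 for microbiome source and from 0 to 7 for germline source, with ninaE and norpA turning to 0.26 and 0.013 for the microbiome and to −0.21 and −0.25 for the germline. With equal library totals the median of all genes itself moved to −0.14 in F1, −0.11 in F2 history, −0.10 for microbiome source and 0.12 in the interaction. Calls in F1 then split into 574 higher and 2365 lower (1240 and 1420 before), in F2 history into 179 and 248 (252 and 77), for microbiome source into 681 and 2007 (1072 and 767), and for F2-M25-G25 against F1-25 into 433 and 379 (314 and 432). Members called in F1 rose from 1 to 3 (trp and Arr2 added, at −0.36 and −0.37), Arr1 turned to −0.0085 there, and inaD for germline source to 0.017, or to 0.0015 under median-of-ratios scaling.

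Keeping the calculated values gave 2 members for germline source, 1 for the interaction and 7 for F2-M25-G25 against F1-25, with norpA for germline source at −0.0099. Calls over all genes then rose from 329 to 1274 in F2 history, from 1839 to 2851 for microbiome source, from 183 to 547 for germline source, from 1 to 21 in the interaction, from 746 to 1648 between the control groups and from 541 to 1261 in the difference between generations. Fitting only the compared groups gave 1 member for the interaction and 0 for F2-M25-G25 against F1-25, with 1165, 809, 15, 328 and 341 genes called in F1, F2 history, the interaction, the control groups and the difference between generations.

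Replicate numbers did not pair the libraries (mean correlation of deviations −0.007 for the same number over 51 pairs and 0.0023 for other numbers over 150 pairs). With the replicate block, 1 member (inaC) was called for germline source, where norpA stood at −0.017. Under the block Arr1 in F2 history (adjusted p = 0.057, limma), inaC for microbiome source (0.0509) and inaD between the control groups (0.0699) were lost, and inaC in F2 history was gained (0.0297).

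Leaving out 1 library gave 1 to 4 members in F1, 0 to 5 in F2 history, 5 to 7 for microbiome source, 0 for germline source, 0 to 1 for the interaction, 0 to 6 for F2-M25-G25 against F1-25 and 0 to 3 for the difference between generations. Values near 0 turned in 18 cases: norpA in F1 ran from −0.27 to 0.075, ninaA, norpA and inaD for germline source from −0.13 to 0.012, from −0.036 to 0.052 and from −0.019 to 0.019, trp in the interaction from −0.028 to 0.081, trpl between the control groups from −0.12 to 0.18 and norpA between generations from −0.059 to 0.29. The cause of these changes was not tested. Reads per gene could not be recovered, which limits low genes such as ninaA. Without F2-M25-G18 replicate 3, the shallowest library by the supplement of the study, 6 members were called for microbiome source (inaC was lost).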

Other observations

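Genes that supply the chromophore of rhodopsin went both ways with the microbiome source as labelled (germline source if the crossed groups are exchanged). Of 8 tested genes for rhodopsin maturation and chromophore supply, 2 were higher and 2 lower. The higher ones were ninaD and santa-maria, scavenger receptors for carotenoid uptake, at 1.07 (SE 0.18) and 0.66 (SE 0.11), and the lower ones were ninaB, the oxygenase that makes retinal, at −0.32 (SE 0.09) and Pdh, a retinol dehydrogenase, at −0.25 (SE 0.07), with limma adjusted p from 0.000665 to 0.0235. In F2 history santa-maria was higher as well, by 0.72 (SE 0.18, limma adjusted p = 0.0355). In F1 ninaB was higher in cold-treated males by 0.55 (SE 0.14, limma adjusted p = 0.00731) and Pdh was lower, at −0.33 (SE 0.11, limma adjusted p = 0.0277).

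Pigment, transmitter and transcription factor genes of the eye also held calls. Of 4 tested genes for screening pigment, 2 were called lower in F1 and none higher, beside 12.6% and 11.0% of all tested genes, with a list median of −0.71. Among the 2 was bw, a pteridine transporter, at −0.84 (SE 0.23, limma adjusted p = 0.0121). With the microbiome source as labelled bw was higher by 0.67 (SE 0.19, limma adjusted p = 0.0199). In histamine recycling e and t, the ebony and tan enzymes, were higher in F1 by 1.18 (SE 0.30) and 0.33 (SE 0.11), with limma adjusted p of 0.00689 and 0.033, and e also acts in cuticle tanning. For eye transcription factors none of 8 was called in F1. At an unadjusted p under 0.05 in limma there was 1, beside 4006 of all 11314 tested genes. The factors toy and eya were lower with the microbiome source as labelled, at −0.39 (SE 0.10) and −0.37 (SE 0.11), with limma adjusted p of 0.0118 and 0.0291.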
